A study of Drosophila melanogaster with 7 samples.

Results

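Chromosome 4 is the smallest autosome of Drosophila melanogaster. The regions described here are all called intervals whose chromosome is given as 4 in the lists of 5 chromatin proteins mapped by ChIP-Seq (chromatin immunoprecipitation followed by sequencing). They number 249 of 29798 regions in all, of which 10 belong to HP1c, 52 to Dsk2, 54 to WOC, 67 to ROW and 66 to Z4. They were taken by chromosome name alone, so no measured value chose them, and every region is accounted for.

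All libraries came from S2 cells, an established Drosophila line derived from late embryos, and the labels name no treatment. The antibodies against HP1c, Dsk2, WOC and ROW were raised in rabbit and the one against Z4 in guinea pig. Each protein had 1 library, and 2 inputs (chromatin without immunoprecipitation) served as background, 1 for HP1c and Dsk2 and 1 for WOC, ROW and Z4. The lists give positions only, with no height, score or read number, so depth is unknown and a region says where a threshold was passed, not how strongly. With no replicate and no test of a difference, chromosome 4 is set beside 2L, 3L, 3R and X, each arm giving its own value. The 95% intervals are exact binomial ones and cover the counting of regions only; regions of 1 list are not replicates, and neighbouring regions are not independent. For a count of 0, the share that 3 counts would make is given as the one allowed, with the upper end of the exact interval beside it.

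Chromosome 4 is known for genes that are transcribed although much of the chromosome is packaged with HP1a, the heterochromatic member of the HP1 family, and with the chromosome-specific protein POF. HP1c, a relative of HP1a, is found mainly in euchromatin. Its known partners include the zinc-finger proteins WOC and ROW, and the ubiquilin Dsk2, which binds ubiquitin. Z4 is a zinc-finger protein of the interbands of polytene chromosomes, the decondensed stretches between bands.

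Dsk2, WOC and Z4 regions were about as dense on chromosome 4 as on the arms, ROW regions were somewhat sparser, and HP1c regions were the sparsest relative to the arms. Over a span of 1.212 Mb, from the first region at 63924 to the last at 1276233 (dm3), HP1c had 8.25 regions per Mb, against 19.6 to 24.6 per Mb on the 4 arms. Its density was 0.380 times that of the arms together (interval 0.182 to 0.701), and 0.216 times (0.0587 to 0.554) when only regions of at least 50 bp were kept, which leaves 4 HP1c regions on chromosome 4. Dsk2 had 42.9 regions per Mb, against 35.6 to 40.05 on the arms, a ratio of 1.13 (0.839 to 1.48). WOC had 44.5 per Mb, against 44.9 to 49.96, a ratio of 0.940 (0.705 to 1.23). Z4 had 54.4 per Mb, against 54.7 to 63.2, a ratio of 0.919 (0.710 to 1.17). ROW had 55.3 per Mb, against 63.1 to 78.1, a ratio of 0.775 (0.600 to 0.986). The intervals of Dsk2, WOC and Z4 thus held 1 and those of HP1c and ROW did not. For ROW this was lost with regions of at least 50 bp, where the ratio was 0.792 (0.592 to 1.04). HP1c and Dsk2 share an input and stood at opposite ends of this order. Differences between HP1c or Dsk2 and the 3 other proteins cannot be told apart from the change of input, and how well short reads map to chromosome 4, and how many copies of it these cells carry, was not tested.

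**Figure D1:**
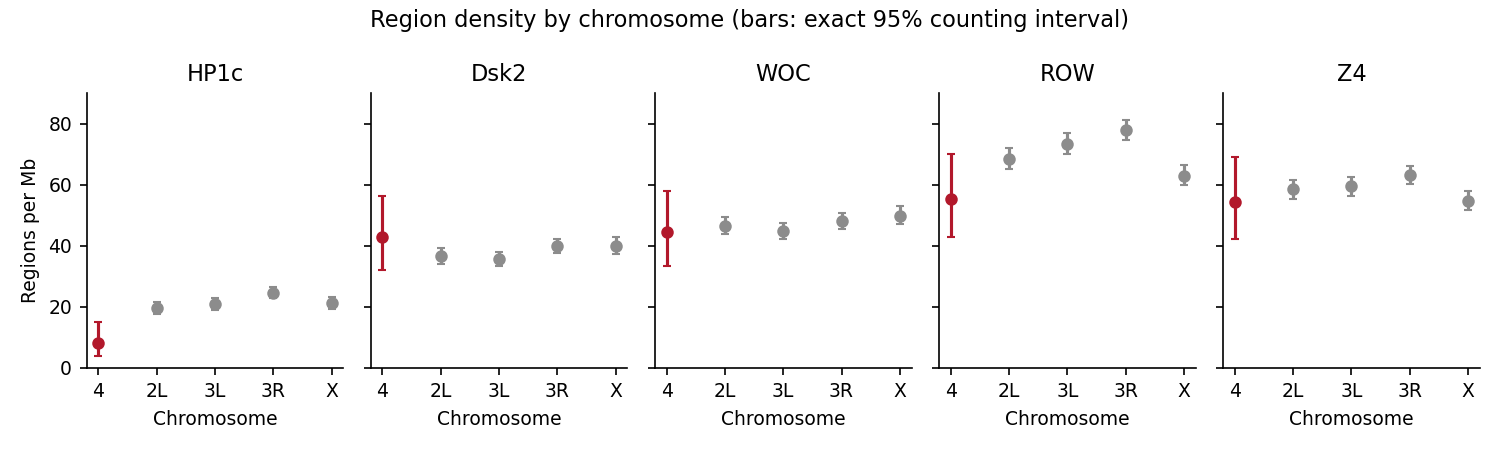
Regions per Mb (vertical axis) of each list on chromosome 4 (red) and on 2L, 3L, 3R and X (grey); bars are exact 95% counting intervals. HP1c on chromosome 4, at 8.25 per Mb, lies below all 4 arms, whose lowest value is 19.6 per Mb.

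In covered bases the gap for HP1c was wider. HP1c regions covered 670 bp of chromosome 4, or 0.0553% of the span, against 0.336 to 0.437% of the arms, a ratio of 0.149. Dsk2 covered 1.03%, against 0.972 to 1.16% (ratio 0.982). WOC covered 1.29%, against 1.11 to 1.27% (ratio 1.09). Dsk2 and WOC, which occupy nearly the same sites, took up about as much of chromosome 4 as of the arms. Z4 covered 2.18%, against 1.90 to 2.91% (ratio 0.874). ROW covered 1.86%, against 2.54 to 3.90% (ratio 0.543), and was the only one of these 4 proteins whose covered share lay below all 4 arms.

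The median width of HP1c regions was lower than on the arms, but with 10 regions the interval held the arms' value. On chromosome 4 they had a median of 44.5 bp (exact interval of the median 3 to 167 bp, n = 10), against 119 bp on the arms (110 to 127 bp). Of the 10, 6 were under 50 bp (60.0%, 26.2 to 87.8%), against 29.5% on the arms, a value inside that interval, and the widest had 170 bp. Dsk2 regions had a median of 223 bp (156 to 279 bp), against 216 bp, and WOC regions of 250 bp (195 to 312 bp), against 200 bp. Fewer of them were narrow than on the arms, with 11.5% of Dsk2 (against 18.8%) and 9.26% of WOC regions (against 16.9%) under 50 bp, although the intervals of 4.35 to 23.4% and 3.08 to 20.3% held the arms' values. Z4 regions had a median of 298.5 bp (241 to 414 bp), against 347 bp, and ROW regions of 203 bp (119 to 337 bp), against 240 bp.

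No region of any list on chromosome 4 exceeded 2 kb. For ROW this allows up to 4.48% (exact interval to 5.36%), against 3.905% on the arms, and for Z4 up to 4.55% (to 5.44%), against 0.950%, so a lower share was not detectable with so few regions. The widest ROW region had 1627 bp (155962 to 157588) and held 2 Z4 regions of 1 and 36 bp. The widest Z4 region had 1457 bp (1046857 to 1048313). The widest Dsk2 region had 1025 bp (1051496 to 1052520) and the widest WOC region 991 bp (1051492 to 1052482). The widest Dsk2 and WOC regions thus lay at 1 site, in the same cluster as the widest Z4 region.

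Regions were spread along the whole span in clusters with long stretches between them. In 10 bins of 121.2 kb, Dsk2 had 2 to 8 regions, WOC 3 to 8, ROW 3 to 12 and Z4 4 to 10, and no bin was empty for any of these 4. HP1c had 3 regions in the second bin, 2 in the last, 1 in each of the third to seventh and none in the first, eighth and ninth. The 3 longest stretches without a region of any list ran from 380995 to 464361 (83.4 kb), from 252474 to 328442 (75.97 kb) and from 742648 to 808077 (65.4 kb). On the arms, which are much longer, the longest such stretch measured 292.9 to 461.8 kb. The longest stretch without HP1c on chromosome 4 measured 373.2 kb, against 529.9 to 809.6 kb on the arms. It held 17 Dsk2, 17 WOC, 26 ROW and 19 Z4 regions, so the other proteins were not missing there.

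**Figure D2:**
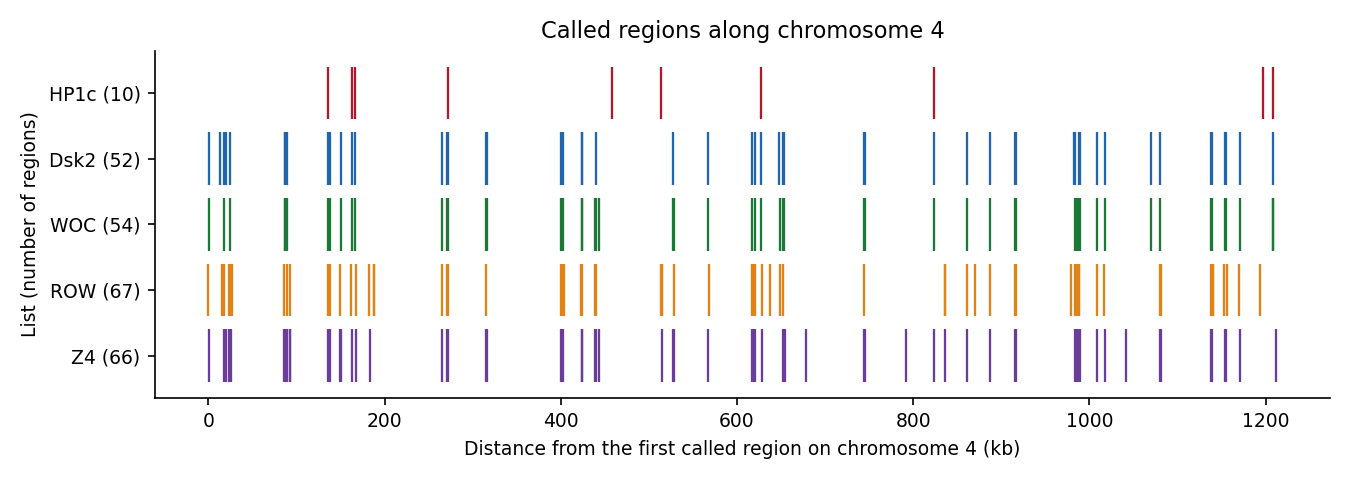
Position of every called region on chromosome 4, as distance in kb from the first region (horizontal axis), with 1 row of ticks for each list and its number of regions. Most Dsk2, WOC and Z4 ticks fall into the same clusters along the 1212 kb span. HP1c has only 10 ticks, too few to reach most of these clusters wherever the ticks lie.

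When regions sharing at least 1 bp were merged into loci, chromosome 4 had 102 loci (84.1 per Mb), against 10307 on the arms (105.5 per Mb). Loci within 5 kb of each other formed 41 clusters. Dsk2 and WOC were each present in 31 of these, ROW in 34, Z4 in 36 and HP1c in 9, and 26 clusters held more than 1 locus. Clusters were not formed on the arms, but close loci were about as frequent there. Of 101 gaps between neighbouring loci on chromosome 4, 45 were under 1 kb (44.55%), against 45.1% on the arms (43.6 to 46.2% on single arms). The cluster with the most regions, 20, ran from 1043220 to 1053779 and held 4 Dsk2, 4 WOC, 8 ROW and 4 Z4 regions and no HP1c region. Each of the 10 HP1c, 52 Dsk2 and 54 WOC regions lay in a locus of its own, with no second region of the same list. The median gap between neighbouring regions was wider than on the arms in all 5 lists. It was 9.16 kb for Z4, against 3.53 kb on the arms, and 5.39 kb for ROW, against 2.15 kb. For Dsk2 it was 11.8 kb, against 7.145 kb, for WOC 9.92 kb, against 5.75 kb, and for HP1c 104.6 kb, against 14.3 kb.

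The first comparison of partners concerns HP1c itself. Of the 10 HP1c regions, 7 overlapped both a Dsk2 and a WOC region (70.0%, 34.8 to 93.3%), against 61.6% with Dsk2 and 58.4% with WOC on the arms. Z4 was present at 6 (60.0%), against 47.1%, and 3 overlapped no other list (30.0%), against 29.4%. None of the 10 overlapped a ROW region, which allows a share of up to 30.0% (exact interval to 30.85%), against 26.9% on the arms. The interval of each of these shares, with 10 regions, held the value of the arms.

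The 7 HP1c regions with Dsk2 and WOC were narrow, and 6 of them lay wholly inside their Dsk2, WOC and Z4 regions. The one from 200053 to 200096 (44 bp) lay within a Dsk2 region of 352 bp (199914 to 200265), a WOC region of 549 bp (199920 to 200468) and a 500 bp region of Z4 (199790 to 200289). The ROW region of that locus (199591 to 199979) ended 74 bp before it. The next ones lay at 226592 to 226655 (64 bp), 230842 to 230844 (3 bp), 335475 to 335519 (45 bp), 691640 to 691644 (5 bp) and 887692 to 887729 (38 bp). The exception, from 1272385 to 1272551 (167 bp), started before its Dsk2 region (1272393 to 1272612) and had no Z4 region. The midpoints of the 7 were 34.5 bp (median) from that of the Dsk2 region, against 62.5 bp on the arms. All 7 were within 100 bp (100%, 59.04 to 100%), against 66.03% on the arms, a value inside that interval.

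In 5 of these 7 the merged locus held all 5 proteins: 199591 to 200468, 226000 to 226894, 230641 to 231303, 335265 to 335957 and 691504 to 692145. These are 4.90% of loci (1.61 to 11.07%), against 6.74% on the arms. In all 5 the ROW region overlapped Z4, in 3 it also overlapped Dsk2 or WOC, and in no case did it reach HP1c, which lay 74, 108, 115, 78 and 209 bp away. A locus with all 5 proteins on chromosome 4 was therefore a run of adjoining sites, with HP1c, Dsk2 and WOC at one point and ROW to one side. The locus from 887576 to 887987 had Z4 and no ROW region within 11819 bp of HP1c, and the one from 1272385 to 1272612 had neither ROW nor Z4.

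The 3 HP1c regions without a partner were 170 bp (522268 to 522437), 133 bp (577887 to 578019) and 1 bp (1260880). The first was the widest HP1c region of the chromosome, and the nearest region of any other list, a Z4 region, lay 14806 bp away. The second had a ROW region 101 bp away and a Z4 region 205 bp away, while the nearest Dsk2 region was 13364 bp away. The third had no other region within 3 kb.

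What the sites without HP1c held was asked from the side of Dsk2 and WOC. Of the 52 Dsk2 regions 48 overlapped WOC (92.3%, 81.5 to 97.9%), against 87.3% on the arms, and of the 54 WOC regions 48 overlapped Dsk2 (88.9%, 77.4 to 95.8%), against 70.1%. The second interval lay above all 4 arms, whose highest value was 72.65%. The midpoints of Dsk2 and WOC were 21.75 bp apart (median), against 29.5 bp, and the bases shared were 69.8% of their union, against 57.3 to 62.4% on the arms. A single WOC region, of 32 bp (1272035 to 1272066), overlapped no other list (1.85%), against 13.8%, and so did 2 Dsk2 regions (3.85%), against 5.53%. These Dsk2 regions had 162 bp (77051 to 77212) and 31 bp (1046586 to 1046616). With equal-length lists, which keep the 2711 widest regions of each protein, the difference between chromosome 4 and the arms in WOC regions with Dsk2 was 6.61 points instead of 18.8.

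HP1c was present at 7 of the 52 Dsk2 regions (13.5%, 5.59 to 25.8%), against 32.8% on the arms, where the 4 values ran from 30.2 to 36.45%. It was present at 7 of the 54 WOC regions (13.0%, 5.37 to 24.9%), against 25.6% (23.6 to 29.96%), at 6 of the 66 Z4 regions (9.09%, 3.41 to 18.7%), against 16.5%, and at none of the 67 ROW regions, which allows up to 4.48% (exact interval to 5.36%), against 7.21%. The shares for Dsk2 and WOC lay below every arm, and their intervals did not reach the value of the arms together. The interval for Dsk2 also lay below every single arm, but that for WOC held the values of 2L (24.5%), 3L (23.6%) and X (23.6%). With equal-length lists the difference for WOC was -25.45 points instead of -12.7. Of the 7 HP1c regions concerned 5 were under 50 bp, and with regions of at least 50 bp HP1c was at 4.35% of Dsk2 regions on chromosome 4, against 27.8% on the arms.

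Loci with both Dsk2 and WOC made up 49 of the 102 on chromosome 4 (48.0%, 38.04 to 58.2%), against 30.1% on the arms. HP1c was present at 7 of the 49 (14.3%, 5.94 to 27.2%), against 36.6%, with 34.3 to 40.0% on the single arms. With regions of at least 50 bp it was 4.55%, against 29.65%. Counted over all loci, HP1c was present at 9.80% (4.80 to 17.3%), against 18.9%, and this difference of -9.09 points was -17.5 with equal-length lists.

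**Figure D3:**
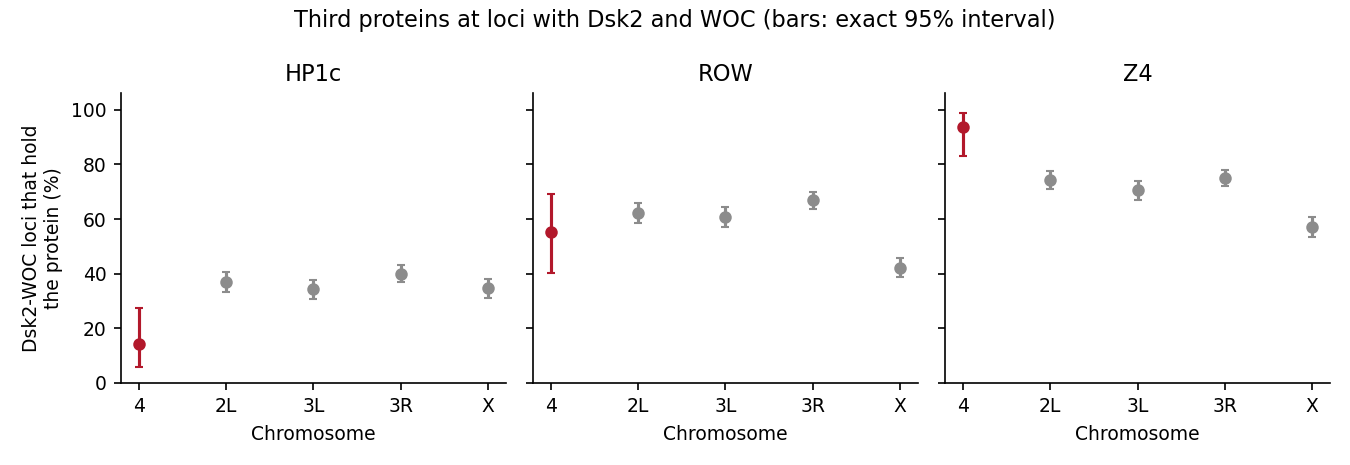
Share in % (vertical axis) of loci with Dsk2 and WOC that also hold HP1c, ROW or Z4, on chromosome 4 (red, 49 loci) and on 2L, 3L, 3R and X (grey); bars are exact 95% intervals. Chromosome 4 lies below all arms for HP1c (14.3%), among them for ROW (55.1%) and above all of them for Z4 (93.9%).

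At these loci Z4 was almost always present. It was found at 46 of the 49 (93.9%, 83.1 to 98.7%), against 69.5% on the arms, where X had 57.1% and the highest arm 75.1%. ROW was found at 27 of the 49 (55.1%, 40.2 to 69.3%), against 58.4%, within the spread of the arms (42.2 to 66.85%). Z4 without ROW occurred at 19 (38.8%, 25.2 to 53.8%), against 16.1%, and ROW without Z4 at none, which allows up to 6.12% (exact interval to 7.25%), against 4.99%. Only 3 loci had neither (6.12%, 1.28 to 16.9%), against 25.5%. Equal-length lists left 27 such loci on chromosome 4, and the Z4 difference there was 5.07 points instead of 24.4.

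Without HP1c, 42 Dsk2-WOC loci remained. Of these, 22 held ROW and Z4, 18 held Z4 and no ROW, and 2 held neither, so Z4 was at 40 of 42 (95.2%, 83.8 to 99.4%), against 66.2% on the arms. The 2 with neither lay at 712078 to 712242 and 1133906 to 1134051. Of the 7 Dsk2-WOC loci with HP1c, 6 also held Z4, so Z4 was common both with and without HP1c. No HP1c region lay within 500 bp of these 42, which allows up to 7.14% (exact interval to 8.41%). The arms had 8.02%, inside the exact interval, and the median distance to the nearest was 49.04 kb on chromosome 4, against 8.41 kb on the arms.

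The share with HP1c was below that of the arms both where ROW was present and where it was not. Of the Dsk2-WOC loci with ROW and Z4, 5 of 27 held HP1c (18.5%, 6.30 to 38.1%), against 41.8%. Of those with Z4 and no ROW, 1 of 19 did (5.26%, 0.133 to 26.03%), against 32.5%. Of the 3 with neither, 1 did. The lower share on chromosome 4 was thus seen within each of the larger kinds of locus.

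Dsk2 regions at Dsk2-WOC loci had a larger median width with HP1c than without it, on the arms and on chromosome 4. Their ranges overlapped in both, and on chromosome 4 so did the intervals of the medians. On the arms, Dsk2 regions at Dsk2-WOC loci had a median of 383 bp with HP1c and 170 bp without. On chromosome 4 they had 299 bp with HP1c (220 to 352 bp, n = 7) and 214.5 bp without (n = 42, from 9 to 1025 bp). Among Dsk2 regions of 300 bp or more, 3 of 13 held HP1c on chromosome 4 (23.1%, 5.04 to 53.8%), against 60.5% on the arms. Among those of 150 bp to under 300 bp it was 4 of 22 (18.2%, 5.19 to 40.3%), against 28.5%, and among those under 150 bp 0 of 17, which allows up to 17.6% (exact interval to 19.5%), against 9.08%. The gap was widest in the class of wide Dsk2 regions, and the intervals of the other classes held the arms' values.

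The 5 widest loci with Dsk2, WOC, ROW and Z4 but no HP1c are described singly. They were picked by width, which favours wide ROW and Z4 regions, so they do not stand for all 22 loci of this combination. In the locus from 978940 to 979233, for example, the ROW region had only 7 bp. In the widest, from 212730 to 214919 (2190 bp), a ROW region of 1602 bp ended 119 bp before a Dsk2 region of 293 bp, and Z4 (213998 to 214862, 865 bp) overlapped both. In the second, from 682888 to 684807 (1920 bp), ROW regions of 729 and 491 bp stood on either side of Dsk2 (226 bp) and WOC (496 bp), and a Z4 region of 1169 bp overlapped them all. In the third, from 1046643 to 1048554 (1912 bp), ROW regions of 984 and 474 bp overlapped the ends of a Dsk2 region of 630 bp. In these 3 loci Dsk2 and WOC stood at one point, Z4 lay across them and ROW stood at one or both sides. The fourth (1051202 to 1052793, 1592 bp) held the widest Dsk2 and WOC regions and 3 ROW regions of 203, 337 and 203 bp, the middle one inside the Dsk2 region. The fifth (680158 to 681644, 1487 bp) had a ROW region of 984 bp ending 53 bp before a Dsk2 region of 310 bp.

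Z4 on chromosome 4 thus overlapped Dsk2 and WOC more often and ROW less often than on the arms. Z4 was at 46 of 52 Dsk2 regions (88.5%, 76.6 to 95.6%), against 62.8% (51.5 to 67.9% on single arms), and at 49 of 54 WOC regions (90.7%, 79.7 to 96.9%), against 59.3% (51.4 to 64.6%). From its own side, 47 of 66 Z4 regions had Dsk2 (71.2%, 58.7 to 81.7%), against 39.8%, and 50 had WOC (75.8%, 63.6 to 85.5%), against 46.6%. ROW was at 35 of the 66 (53.0%, 40.3 to 65.4%), against 73.4%, but X alone had 58.7%, inside that interval. The 7 Z4 regions without any partner (10.6%), against 13.2%, were narrow, the widest 3 having 266 bp (718132 to 718397), 186 bp (1105418 to 1105603) and 157 bp (1276077 to 1276233).

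In bases, Z4 and WOC shared 43.7% of their union on chromosome 4, against 18.8 to 23.5% on the arms, and Z4 and Dsk2 shared 38.7%, against 16.02 to 21.4%. ROW and Z4 shared 19.95%, against 21.5 to 32.1%. HP1c and Dsk2 shared 2.79%, against 17.1 to 19.95%. HP1c covered only 670 bp, of which 358 bp were shared, and Dsk2 covered 12535 bp. The low HP1c coverage thus limits this share of the union wherever the regions lie. With equal-length lists the difference in Dsk2 regions with Z4 was 8.73 points instead of 25.6 and that in WOC regions with Z4 was 2.74 instead of 31.4, while that in Z4 regions with Dsk2 was 36.7 instead of 31.4. The cause of this was not tested.

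**Figure D4:**
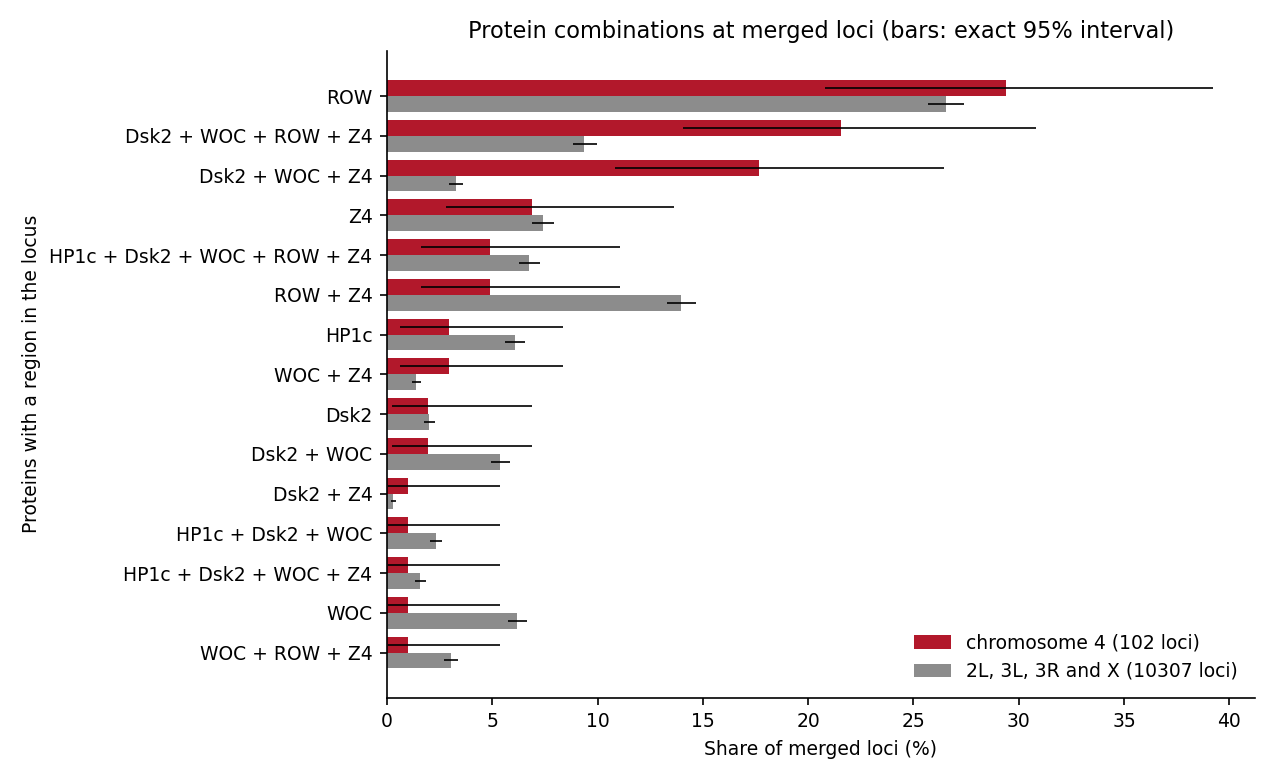
Share of merged loci in % (horizontal axis) for each combination of proteins seen on chromosome 4 (red, 102 loci) and the same on 2L, 3L, 3R and X (grey, 10307 loci); bars are exact 95% intervals. Dsk2, WOC and Z4 with or without ROW take larger shares on chromosome 4 (21.6 and 17.6%), and ROW with Z4 alone a smaller one (4.90%).

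Of the 29 combinations on the arms, 15 occurred on chromosome 4. ROW alone was the most frequent, with 30 loci (29.4%, 20.8 to 39.2%), against 26.6%. Dsk2, WOC, ROW and Z4 without HP1c followed with 22 loci (21.6%, 14.04 to 30.8%), against 9.37%, and Dsk2, WOC and Z4 with 18 loci (17.6%, 10.8 to 26.4%), against 3.27%. ROW with Z4 alone had 5 loci (4.90%, 1.61 to 11.07%), against 14.0%. The largest combination of the arms that chromosome 4 lacked was Dsk2, WOC and ROW, with 112 loci or 1.09% on the arms. The count of 0 among 102 loci allows up to 2.94% (exact interval to 3.55%), so its lack was not distinguishable from the arms. These shares depended on how loci were drawn: with every region set to 200 bp the 4-protein difference was 3.52 points instead of 12.2 and that of ROW with Z4 -4.05 instead of -9.07, while with loci joined within 500 bp the first was 25.6 and that of Dsk2, WOC and Z4 was 6.43 instead of 14.4. Equal-length lists gave 7.37 points for Dsk2, WOC and Z4 and -5.40 for ROW with Z4.

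ROW stood beside the Dsk2 and WOC sites more than on them. It overlapped 11 of 52 Dsk2 regions (21.2%, 11.06 to 34.7%), against 38.6% (30.1 to 43.7% on single arms), and 13 of 54 WOC regions (24.1%, 13.5 to 37.6%), against 37.0%. The interval for Dsk2 held the value of X (30.1%), and that for WOC held the value of the arms together. Within 500 bp, however, a ROW region was found for 38 of the 52 Dsk2 regions (73.1%), against 73.8%, and within 1000 bp for 47 (90.4%, 78.97 to 96.8%), against 79.45%. For Z4 regions with ROW the difference of -20.3 points by overlap was -7.52 within 500 bp and -10.8 with equal-length lists.

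From the side of ROW, the shares were close to those of the arms. Dsk2 was at 12 of 67 ROW regions (17.9%, 9.61 to 29.2%), against 18.9%, WOC at 14 (20.9%), against 22.1%, and Z4 at 37 (55.2%), against 56.5%. ROW regions without a partner numbered 30 (44.8%, 32.6 to 57.4%), against 39.3%. The widest of these had 1081 bp (79246 to 80326), 569 bp (1043220 to 1043788) and 481 bp (900142 to 900622).

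Many ROW regions without a partner lay near a Dsk2 or WOC region, on chromosome 4 as on the arms. Of the 30, 18 were within 1000 bp of one (60.0%, 40.6 to 77.3%), against 45.1%. That interval held the value of each arm (41.1 to 49.3%). Of the 22 Dsk2-WOC loci without ROW, 11 had a ROW region within 500 bp (interval 28.2 to 71.8%), against 42.1% on the arms. That interval held the value of each arm (33.9 to 50.5%). Within 1000 bp, 19 of the 22 had one (86.4%, 65.1 to 97.1%), against 53.06% on the arms (45.2 to 60.5% on single arms). The interval thus lay above the arms at 1000 bp and not at 500 bp. An example of such loci near ROW is the Dsk2-WOC-Z4 pair from 487391 to 487620 and from 488010 to 488181. ROW regions of 63 bp (487274 to 487336) and 238 bp (488229 to 488466) lay at its outer sides. The gaps between Z4 and ROW there were 55 and 48 bp.

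**Figure D5:**
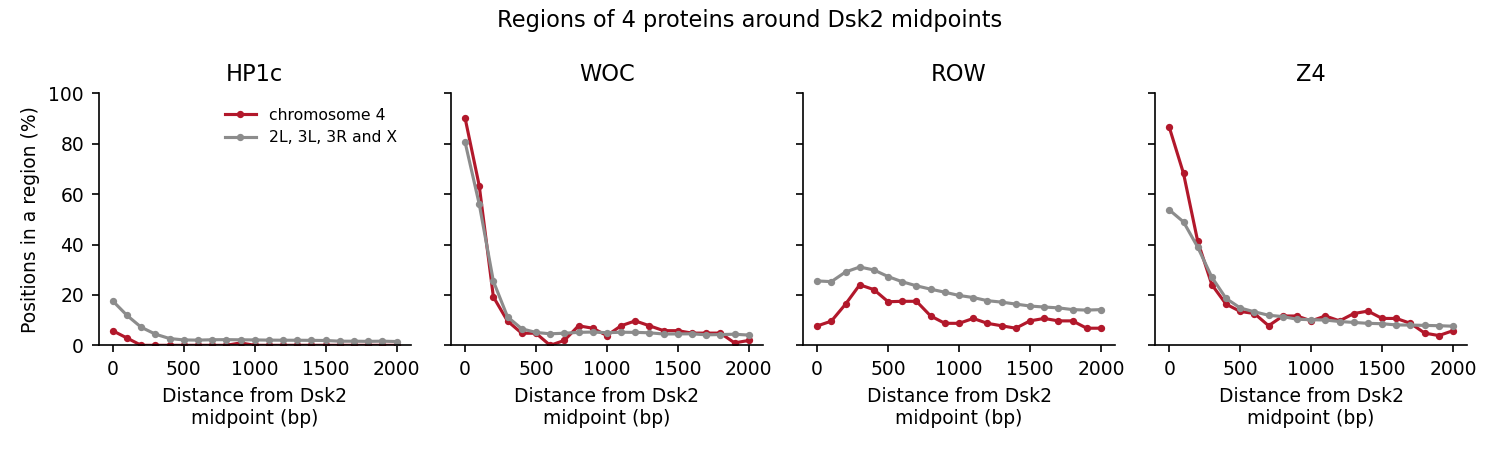
Share in % of positions inside a region of HP1c, WOC, ROW or Z4 (vertical axis) at 0 to 2000 bp from Dsk2 midpoints (horizontal axis, both sides together), on chromosome 4 (red, 52 midpoints) and on 2L, 3L, 3R and X (grey, 3723 midpoints). On chromosome 4, ROW is at 7.69% of midpoints and 24.04% of positions 300 bp away, and Z4 at 86.5% of midpoints.

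The profile around Dsk2 midpoints gives the same lists without any overlap rule. On chromosome 4 ROW covered 4 of 52 midpoints (7.69%), 24.04% of positions 300 bp away and 8.74% at 1000 bp. On the arms ROW covered 25.6%, 31.1% and 19.8% at the same distances, so there too its share was higher at 300 bp than at the midpoint. Z4 covered 86.5% of Dsk2 midpoints on chromosome 4, against 53.8% on the arms, and 24.04% of positions 300 bp away, against 27.02%. The gap between chromosome 4 and the arms in Z4 was thus larger at the centre than at 300 bp. HP1c covered 3 of the 52 midpoints (5.77%), against 17.6%. Positions around 1 midpoint, and midpoints in 1 cluster, are not independent.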

How the data were processed

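The files hold called regions of 5 ChIP-Seq libraries as chromosome, start and end, as deposited by the authors; the series' design text says that they were called against input. CASAVA 1.8, FastQC 0.9.3 and Bowtie 0.12.5 and the dm3 build are named per the submitters' processing notes. The program that called the regions and its threshold were not given in the sources used here. No 2 neighbours of 1 list lay closer than 301 bp on the chromosomes compared.

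Widths count both end positions, and since no source states whether the first base is 0 or 1, each position carries an uncertainty of 1 bp. Distances run from the end of one region to the start of the next. Spans run from the first to the last region of any list and so leave out the ends of each chromosome. The first region started at 63924 on chromosome 4 and at 17301 to 41986 on the much longer arms. At that end a larger part of chromosome 4 is left out, which raises its densities and covered shares relative to the arms. Values over full chromosome lengths were not computed. Overlap meant at least 1 shared bp. Intervals are exact: Clopper-Pearson for shares, conditional binomial for density ratios and order statistics for medians; for a count of 0 the share of 3 counts is given as well. The interval operations were tested on simulated data. The genome annotation at hand is of a later build, so regions were not assigned to genes and no sequence was read. Named regions were every HP1c region, every locus with all 5 proteins, the 5 widest 4-protein loci without HP1c, the widest region of each list, the 3 widest without a partner and the 3 longest empty stretches; other examples were chosen after their values were seen. The members and comparisons were chosen with earlier results of these data known, and the width classes of Dsk2 regions, the profile around Dsk2 midpoints and the layout of loci with HP1c after the data had been seen. Intervals came from SciPy 1.17.1, tables from pandas 2.3.3 with NumPy 2.4.6, and figures from matplotlib 3.10.9, all under Python 3.11.15.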

Additional observations from a re-analysis of the deposited data

How the results depend on the processing

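Of 105 recomputed values for 30 results, 88 stayed within the main interval and 15 moved outside it. For covered length the limit was 1.5 times of the main value. A further 2, both differences, changed sign while staying inside the main interval. Of the 75 that were differences between chromosome 4 and the arms, 73 kept their sign. The WOC density ratio of 0.940 was 1.03 with regions of at least 50 bp and 1.15 with equal-length lists, both inside its main interval. The difference in Dsk2 regions with HP1c ran from -26.6 to -18.3 points and that of HP1c at Dsk2-WOC loci from -32.1 to -17.4 over the alternatives. Equal-length lists, which keep the 2711 widest regions of each, gave 0.553 for the ROW density ratio, 36.7 points for Z4 regions with Dsk2, -25.45 points for WOC regions with HP1c, 8.73 and 2.74 for Dsk2 and WOC regions with Z4, 6.61 for WOC regions with Dsk2, -17.5 for loci with HP1c, 7.37 for loci of Dsk2, WOC and Z4, -32.1 for HP1c and 5.07 for Z4 at Dsk2-WOC loci. Counting regions within 500 bp gave -0.734 for Dsk2 and -7.52 for Z4 regions with ROW. Regions of at least 50 bp gave 0.216 for the HP1c density ratio, 0.792 (0.592 to 1.04, which holds 1) for that of ROW and -12.6 for loci of ROW with Z4 alone. Regions of 200 bp gave 3.52 for 4-protein loci, and loci joined within 500 bp gave 25.6 for these and 6.43 for Dsk2, WOC and Z4. Adding 2R to the arms moved no value outside its interval. ROW at Dsk2-WOC loci was -3.35 points in the main setting, 0.874 with regions of at least 50 bp and 3.77 with loci joined within 500 bp, and the main interval ran from -18.2 to 10.9. The cause of these shifts was not tested. No paired analysis was possible because each protein has 1 library. With 10 HP1c regions on chromosome 4, no overlap share of that list had an interval that left out the value of the arms, and strength of binding cannot be read from widths.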

Other observations

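Close pairs of regions were about as frequent on chromosome 4 as elsewhere for Dsk2 and less so for ROW. Of 51 gaps between neighbouring Dsk2 regions 8 were under 1 kb (15.7%), against 14.7% on the arms, and of 53 WOC gaps 10 were (18.9%), against 14.7%. Of 66 ROW gaps 16 were under 1 kb (24.2%), against 37.5%. HP1c had none among 9 gaps, which allows up to 33.3% (exact interval to 33.6%), against 15.6% on the arms, and its smallest gap was 4187 bp. These are descriptions of 1 list each, with no test.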
